A study of Mus musculus with 8 samples.

Results

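Lost H4K20me3 peaks away from H3K9me3 are called peaks of trimethylated histone H4 lysine 20 in wild-type (WT) cells that overlap no WT peak of trimethylated histone H3 lysine 9 (H3K9me3) and no H4K20me3 peak in KAP1 knockout (KO) cells. They were chosen by position from 3 peak lists on chromosomes 1 to 19, with 1 shared base counting as overlap. This gave 2724 of the 11295 WT H4K20me3 peaks of the series. Of the 11104 WT H4K20me3 peaks on chromosomes 1 to 19, 1190 lay on H3K9me3 and 9914 did not, and 7190 of the latter had a KO peak at the same place and are called stable here. The data are from ChIP-seq, in which chromatin fragments bound by an antibody are sequenced, in mouse embryonic fibroblasts (MEF), connective tissue cells of the embryo. WT cells were profiled for KAP1, H3K9me3 and H4K20me3, and cells labelled KAP1 KO for both marks, with 1 library each. How the knockout was made, and how many embryos the cultures came from, is not given in the sources used here, and KAP1 was not profiled in the KO cells.

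H4K20me3 is written by the methyltransferases KMT5B and KMT5C. In the textbook order of heterochromatin assembly, the corepressor KAP1 (TRIM28) is brought to DNA by KRAB zinc finger proteins and recruits SETDB1, which writes H3K9me3. HP1 proteins bind H3K9me3 and bring in the H4K20 methyltransferases, so H4K20me3 is usually described on top of H3K9me3. The peaks described here carried a called H4K20me3 peak without a called H3K9me3 peak.

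Membership was set by the KO list, so the share lost is a description. Over all 11104 WT H4K20me3 peaks of chromosomes 1 to 19, 34.4% had no KO peak. Among the 9914 peaks away from H3K9me3 the share was 27.5% (95% interval 26.6 to 28.4%), which is the 2724 members. All printed intervals are exact Clopper-Pearson intervals over peaks. They cover counting error alone and are too narrow where neighbouring peaks share a fate. Each group has a single library, so no difference has a replicate check or a test, and an absent peak means only that none was called.

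Most lost peaks were weak. The score is the authors' value for each peak, read here as the score of the peak caller MACS, and is higher where reads stand out more from background. Members scored from 50 to 1233, with a median of 81.1 and quartiles of 61.0 and 121, in a list whose lowest score was 50. Stable peaks had a median of 227 and quartiles of 136 and 376. The middle ranges did not overlap, since the upper quartile of lost peaks lay below the lower quartile of stable ones. From the lowest score class to the highest, the share lost went from 76.2% (628 of 824 peaks scoring 50 to 60) to 1.14% (12 of 1056 scoring 500 or more). It was 33.6% at scores of 100 to 150 and 8.70% at 200 to 300.

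**Figure D1:**
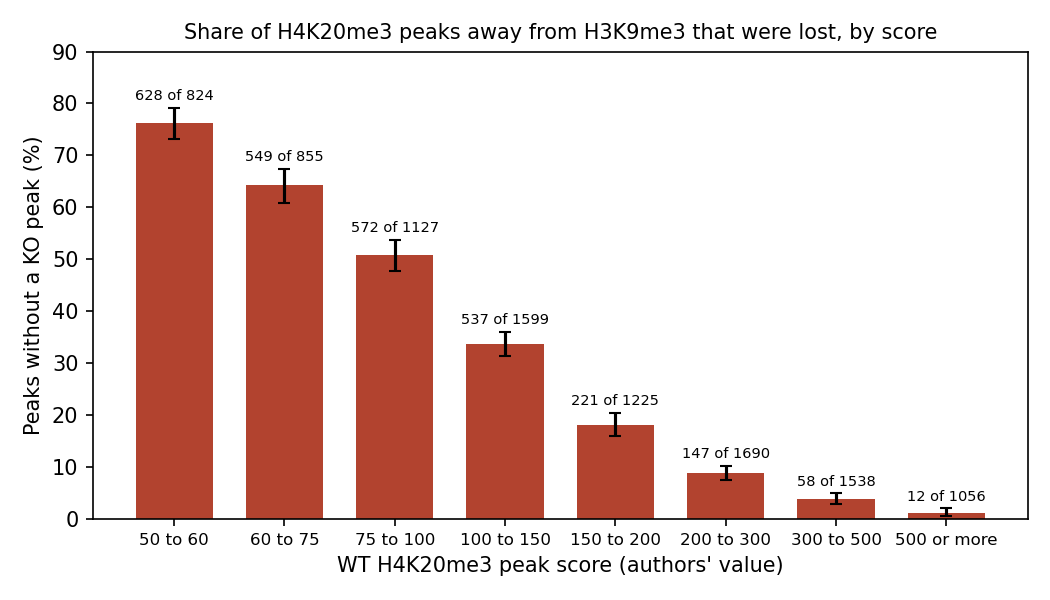
Percentage of WT H4K20me3 peaks away from H3K9me3 with no KO H4K20me3 peak (y axis) in classes of WT peak score (x axis). Bars are shares, error bars are exact 95% intervals over peaks and the labels give the counts; the share falls in every step, from 76.2% to 1.14%.

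Because score separated both classes, the main comparisons below are also given within score classes. Peaks with a score of at least 100 are called strong. There were 975 strong lost peaks, 35.8% of the members, among 7108 strong peaks away from H3K9me3 (13.7%, interval 12.9 to 14.5%). Over all strong WT H4K20me3 peaks, those on H3K9me3 included, 20.5% were lost. The 1749 weak members were 62.3% of the 2806 weak peaks away from H3K9me3 (interval 60.5 to 64.1%), against 67.4% of all weak peaks. A score of at least 200 was reached by 217 members and a score of at least 300 by 70.

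The edges of the rule were narrow. The lost peak closest to a KO H4K20me3 peak, on chromosome 1 (137210463 to 137210764, score 52.5), ended 5 bp from it, and the stable peak with the shortest overlap, on chromosome 3 (89223008 to 89223471, score 65.3), shared 2 bp. In all, 54 members lay within 100 bp of a KO peak, and 29 stable peaks shared at most 100 bp with one. On the H3K9me3 side, 1 member on chromosome 3 (120992136 to 120992775, score 57.1) lay 2 bp from an H3K9me3 peak, and 1 lost peak on chromosome 17 (12443569 to 12443966, score 57.3) was left out for an overlap of 2 bp. Within 100 bp of H3K9me3 lay 47 members, and 41 of the 1101 lost peaks on H3K9me3 overlapped it by at most 100 bp.

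Lost peaks lay closer to H3K9me3 than stable ones, although neither overlapped it. The rule used overlap with H3K9me3 and not distance. The nearest WT H3K9me3 peak was a median of 35.6 kb from a lost peak (quartiles 8.30 and 115 kb) and 68.5 kb from a stable one (quartiles 26.7 and 150 kb). Within 1 kb of H3K9me3 lay 249 of 2724 lost peaks (9.14%, interval 8.08 to 10.3%) and 34 of 7190 stable peaks (0.473%, interval 0.328 to 0.660%). Within 10 kb the shares were 27.1% (interval 25.5 to 28.8%) and 9.96% (interval 9.28 to 10.7%).

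The same order held within score classes. Scores still differed inside the strong class, with medians of 143 for lost and 259 for stable peaks. In the weak class they were 65.9 and 76.1, so the narrower classes and the weighting below match score more closely. Among strong peaks, 281 of 975 lost (28.8%, interval 26.0 to 31.8%) and 623 of 6133 stable peaks (10.2%, interval 9.41 to 10.9%) lay within 10 kb of H3K9me3. Among weak peaks the shares were 26.2% and 8.80%. In the 8 score classes plotted above, the lost share within 10 kb was the higher one each time, without a steady rise with score. It was 26.1% against 6.12% at scores of 50 to 60 and 22.7% against 9.91% at 75 to 100. At 200 to 300 it was 35.4% against 11.1%, and at 300 to 500 25.9% (15 of 58) against 9.46%. When stable peaks were weighted to the score deciles of the lost peaks, 9.0% of them lay within 10 kb of H3K9me3, and 8.82% when weighted to length deciles. With peaks within 5 kb merged, the strong lost share was 17.5% and the strong stable share was 9.37%, and with a score of at least 100 required in every list the shares were 14.3% and 4.31%. The order was also seen on each of the 19 chromosomes, with a difference of 4.34 to 28.6 percentage points.

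Read the other way, the share lost fell with distance from H3K9me3 over the first 100 kb. For strong peaks it was 82.1% within 0.5 kb (55 of 67, interval 70.8 to 90.4%), 59.1% from 0.5 to 1 kb, 45.8% from 1 to 2 kb, 31.8% from 2 to 5 kb and 16.9% from 5 to 10 kb. Scores of strong peaks changed with distance too. Their medians in these classes were, in order, 146, 243, 187, 206 and 235, and 242 at 10 to 50 kb. The share lost by distance was not computed within narrower score classes, so part of the fall may go with score. Strong peaks on H3K9me3 itself were lost in 89.7% of cases (625 of 697, interval 87.2 to 91.8%). Beyond 10 kb the share changed less. It was 12.7% from 10 to 50 kb, 8.99% from 50 to 100 kb, 11.0% from 100 to 500 kb and 13.1% (29 of 221) beyond 500 kb. Weak peaks went from 98.1% within 0.5 kb to 54.4% at 100 to 500 kb and 42.2% beyond. So 283 strong and 491 weak members lay more than 100 kb from any H3K9me3 peak, and 71.6% of all members lay within 100 kb of one, against 62.7% of stable peaks. Among strong peaks these shares were 71.0% and 63.3%.

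**Figure D2:**
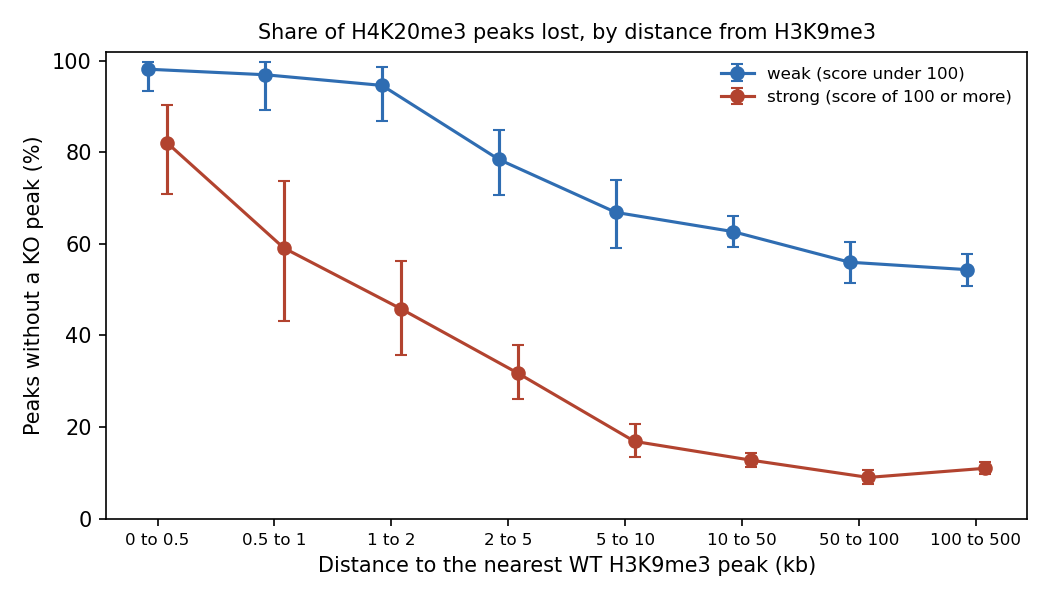
Percentage of WT H4K20me3 peaks without a KO peak (y axis) by distance to the nearest WT H3K9me3 peak in kb (x axis, classes of unequal width), for weak and strong peaks. Points are shares and bars exact 95% intervals over peaks. Strong peaks go from 82.1% within 0.5 kb to 12.7% at 10 to 50 kb. Their scores also differ between distance classes, and peaks beyond 500 kb are not drawn.

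Crowding of H3K9me3 peaks went with loss as well, but it was not separated from distance to the nearest H3K9me3 peak. Strong peaks with 8 or more H3K9me3 peaks within 100 kb were lost in 36.9% of cases (87 of 236, interval 30.7 to 43.4%), and those with 4 to 7 in 17.7%. With none within 100 kb the share was 11.2% (283 of 2533, interval 10.0 to 12.5%). The H3K9me3 peaks nearest to lost peaks scored little above the rest of their list. Within 10 kb their median score was 83.5 for lost and 78.8 for stable peaks, and it was 74.8 over the whole H3K9me3 list. For strong peaks the medians were 79.9 and 79.1.

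Lost peaks with high scores were broader than stable peaks of the same score, and the gap in bp widened with score. At scores of 200 to 300 the median length was 1106 bp for 147 lost peaks (quartiles 905 and 1268 bp) and 861 bp for 1543 stable peaks (quartiles 777 and 984 bp). At 300 to 500 the medians were 1462 and 1055 bp, and the quartile ranges did not overlap. At 500 or more they were 1940 bp for 12 lost peaks and 1450 bp for 1044 stable ones. As a ratio, the medians stood at 1.39 at 300 to 500 and at 1.34 at 500 or more. At low scores the medians were close, with 420 against 433 bp at 50 to 60 and 493 against 491 bp at 60 to 75. In between, they were 570 and 554 bp at 75 to 100, 685 and 653 bp at 100 to 150, and 875 and 752 bp at 150 to 200. The extra length was seen at all distances from H3K9me3 and was greatest near it. At scores of 200 to 300, lost peaks were 1.39 times as long as stable ones within 10 kb of H3K9me3, 1.25 times at 10 to 100 kb and 1.14 times beyond 100 kb. Over all members length ran from 138 to 4544 bp, with a median of 568 bp against 839 bp for stable peaks, so without regard to score the lost peaks were the shorter ones. A longer peak gains score from its width, and how far this bears on the comparison was not tested.

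**Figure D3:**
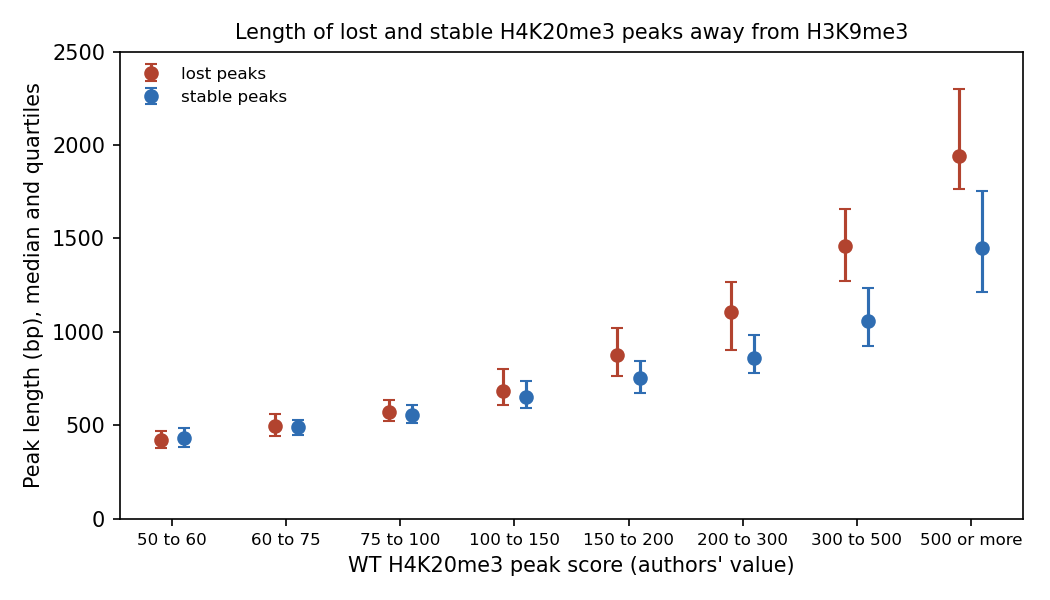
Peak length in bp (y axis, median with quartile bars) of lost and stable H4K20me3 peaks away from H3K9me3 by class of WT score (x axis). Medians are 420 and 433 bp at scores of 50 to 60 and part at higher scores, reaching 1106 against 861 bp at 200 to 300.

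The highest-scoring member lay on chromosome 17 (59217677 to 59222220). It scored 1233, was also the longest at 4544 bp, and lay 2.48 kb from an H3K9me3 peak of score 188. It belonged to a run of 7 WT H4K20me3 peaks from 59209351 to 59223694, none further than 10 kb from the next and none called in KO. The closest KO H4K20me3 peak lay 64.9 kb away, with a score of 114. By comparison, the highest-scoring stable peaks, on chromosome 8 (125625897 to 125628072) and chromosome 2 (32816964 to 32819043), scored 3100 and 3041 in WT and 3100 and 3173 in KO, so the strongest peaks of the class were stable.

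**Figure D4:**
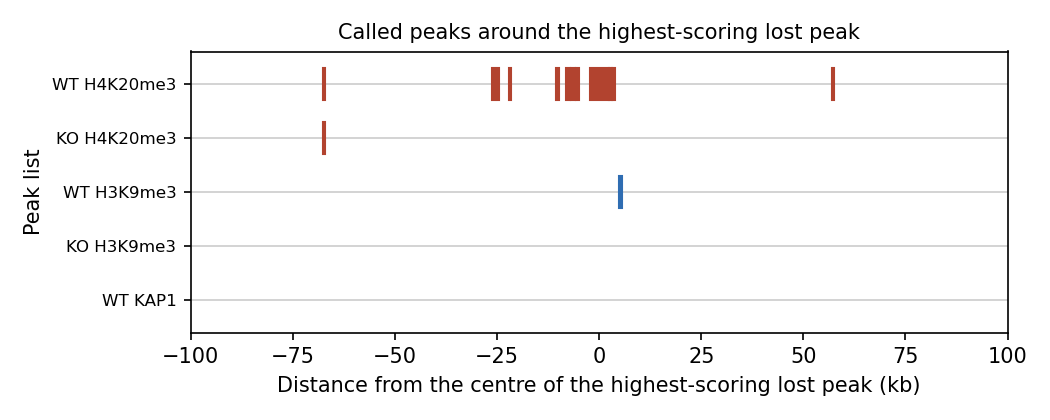
Peaks of the 5 lists within 100 kb of the centre of the highest-scoring lost peak, drawn to scale by distance in kb (x axis), with 1 row per list (y axis). WT H4K20me3 peaks crowd around the centre beside 1 WT H3K9me3 peak of score 188, and the only KO H4K20me3 peak lies at the left, 64.9 kb from the lost peak.

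The next members by score repeated this layout in part. The peak on chromosome 6 (50630838 to 50633873) scored 726 and lay 2.52 kb from H3K9me3, and that on chromosome 8 (32632110 to 32634907) scored 615 at 4.20 kb. Neither had a KO H4K20me3 peak nearby, with the nearest at 114 and 334 kb. On chromosome 19 a pair of members 0.854 kb apart (58176995 to 58178917 and 58179772 to 58181394) scored 597 and 576, and lay 0.493 and 3.27 kb from an H3K9me3 peak. A member on chromosome 11 (29579240 to 29581127, score 609) lay 0.549 kb from H3K9me3 and one on chromosome 4 (137549215 to 137550416, score 529) 0.134 kb. The members on chromosome 13 (60276437 to 60278571, score 614) and chromosome 2 (30327731 to 30329538, score 534) were further away, at 21.4 and 21.6 kb. The last of the 10 highest, on chromosome 1 (58706711 to 58708780, score 523), was a near miss, with a KO H4K20me3 peak of score 66.5 at 0.705 kb. Of these 10 regions, 8 lay within 10 kb of H3K9me3, and none within 100 kb of a KAP1 peak. A KAP1 peak that close was rare in general, at 5.47% of all members and 6.06% of stable peaks.

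A further 2 members with high scores directly beside H3K9me3 lay on chromosome 17 (76336797 to 76337777, score 446, 0.105 kb away) and chromosome 11 (8344442 to 8345785, score 394, 0.057 kb away). The latter was also 9.20 kb from a KAP1 peak. The next longest members after the top 3 by score, on chromosome 2 (152525648 to 152528103, 2456 bp) and chromosome 15 (74823627 to 74826028, 2402 bp), scored 407 and 411. They lay 12.1 and 33.6 kb from H3K9me3 peaks of scores 908 and 266, both above the median of 74.8 of the H3K9me3 list.

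Strong loss also occurred far from H3K9me3. The highest-scoring members without an H3K9me3 peak within 100 kb were similar in score to each other. On chromosome 3 a peak from 73104450 to 73105886 scored 494, and on chromosome 12 one from 69092746 to 69094246 scored 493. A peak of score 491 lay at 35497951 to 35499283 of chromosome 4. The remaining 2 scored 458, at 58981170 to 58983056 of chromosome 7, and 450, at 55220809 to 55223142 of chromosome 11. The first was 546 kb from H3K9me3 and 2254 kb from any KO H4K20me3 peak. The first 4 each had another lost peak within 1 kb, at 0.028 to 0.718 kb. The peak on chromosome 11 stood apart from other lost peaks, at 451 kb, and had a KO H4K20me3 peak at 8.86 kb.

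Lost peaks had other lost peaks nearby more often than stable peaks did. Another lost peak was within 10 kb of 807 members (29.6%, interval 27.9 to 31.4%), while 6.20% of stable peaks had a lost peak that close (interval 5.66 to 6.79%). For strong peaks the shares were 35.4% and 6.21%. Weighting stable peaks to the score deciles of lost peaks gave 5.61%. Closeness to peaks of the same class was not limited to lost peaks. Another stable peak lay within 10 kb of 21.9% of stable peaks, or 31.2% after the same weighting, and of 16.7% of lost peaks. Among weak peaks, 33.8% of stable ones had another stable peak that close, and 26.4% of lost ones another lost peak. Among strong peaks these shares were 19.9% and 35.4%. Where the nearest other WT H4K20me3 peak was within 10 kb, that neighbour was lost too for 71.1% of members (931 of 1310) and for 24.1% of stable peaks (489 of 2029). For strong peaks these shares were 78.7% and 26.5%, and for weak ones 66.5% and 14.8%. Among the 931 lost neighbours, 693 were members and the other 238 lay on H3K9me3. Parts of 1 domain that the caller split count as neighbours here. With peaks within 5 kb merged, 3.69% of lost and 1.59% of stable regions had another lost region within 10 kb.

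By runs of WT H4K20me3 peaks no more than 10 kb apart, 1414 members (51.9%) stood alone and 1310 lay in 821 runs of 2 or more peaks. By comparison, 2029 of 7190 stable peaks had another WT H4K20me3 peak within 10 kb. Lost peaks thus more often had a neighbour of any class that close, which bears on the shares with a lost peak nearby. Every peak was lost in 407 of those runs (49.6%), which held 814 members. The 821 runs were chosen for holding a member, which raises this share, and the share over all runs was not computed. Runs with a peak on H3K9me3 held 399 members, and runs with a stable peak 476. The run with most members, 8 of 9 peaks, spanned 16280 bp on chromosome 17 (37434960 to 37451239), and the remaining peak lay on H3K9me3 and was lost too. This run was chosen after the values had been seen.

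By the rule no KO H4K20me3 peak overlapped a member, but some lay close by. A KO peak lay within 1 kb of 230 members (8.44%) and within 10 kb of 530 (19.5%). For 462 of those 530 (87.2%), the nearest such KO peak overlapped another WT H4K20me3 peak. No KO H4K20me3 peak was called within 100 kb of 1052 members (38.6%, interval 36.8 to 40.5%), and of 415 of the 975 strong ones (42.6%, interval 39.4 to 45.7%). Many members were isolated in WT already, but no more often than stable peaks. No other WT H4K20me3 peak lay within 100 kb of 507 members (18.6%) and of 1382 stable peaks (19.2%). Among strong peaks this held for 186 lost ones (19.1%) and 1209 stable ones (19.7%). How much of the 38.6% of members without a KO peak within 100 kb comes from such isolated peaks was not computed.

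Few lost or stable peaks lay at KAP1 peaks. KAP1 peaks overlapped 5 members (0.184%, interval 0.0596 to 0.428%) and 9 stable peaks (0.125%, interval 0.0573 to 0.237%), and lay within 10 kb of 30 members (1.10%) and 55 stable peaks (0.765%). Among strong peaks, 4 of 975 lost (0.410%, interval 0.112 to 1.05%) and 8 of 6133 stable ones (0.130%, interval 0.0563 to 0.257%) overlapped a KAP1 peak. The counts are small, with 361 KAP1 peaks on chromosomes 1 to 19, and the difference was not tested. Of these 4 strong members, the one on chromosome 8, from 73899909 to 73900812, scored 148, and the one on chromosome 17, from 56339219 to 56339755, scored 130. Those at 75356132 to 75356774 of chromosome 10 and at 11943305 to 11943742 of chromosome 19 scored 125 and 104. In this order, their nearest H3K9me3 peaks were 0.014, 76.7, 29.7 and 3.08 kb away.

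A few members carried H3K9me3 in KO cells. KO H3K9me3 peaks overlapped 17 members (0.624%, interval 0.364 to 0.997%) and 1 of 7190 stable peaks (0.0139%, interval 0.000352 to 0.0775%). Among strong peaks the counts were 8 of 975 lost (0.821%) and 0 of 6133 stable, with an interval for the latter that reaches up to 0.0601%. These 17 members lay on 10 chromosomes, 4 of them on chromosome 8. The 18 KO H3K9me3 peaks under them had a median score of 80.0, against 63.0 over the KO H3K9me3 list. The strongest of these members, on chromosome 8 (25688875 to 25690831), scored 502 for H4K20me3 in WT and lay 436 kb from the nearest KO H4K20me3 peak. It was named after its values had been seen. By overlap of called peaks, the WT list had H4K20me3 without H3K9me3 in these places, and the KO lists had H3K9me3 without H4K20me3. Some were edge cases. Members on chromosome 10 (120067326 to 120068736) and chromosome 17 (80821183 to 80821808) lay 0.209 and 0.36 kb from a KO H4K20me3 peak. The member on chromosome 4 lay 0.097 kb from WT H3K9me3. Some were also neighbours, with members 0.245 kb apart on chromosome 15 and 0.022 kb apart on chromosome 18.

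Chromosomes differed in the share lost. It was highest on chromosome 13 (200 of 424 peaks, 47.2%, interval 42.3 to 52.0%), chromosome 16 (140 of 335, 41.8%, interval 36.5 to 47.3%) and chromosome 3 (221 of 622, 35.5%). The lowest shares were on chromosome 18 (16 of 165, 9.70%, interval 5.64 to 15.3%), chromosome 11 (159 of 867, 18.3%, interval 15.8 to 21.1%) and chromosome 5 (115 of 605, 19.01%). The median of the 19 chromosomes was 26.7%. Strong peaks kept the extremes, with 32.5% lost on chromosome 13, 26.0% on chromosome 16 and 3.03% on chromosome 18 (3 of 99). With each chromosome weighted to the same score deciles, the share ran from 6.88% on chromosome 18 to 44.7% on chromosome 13. Chromosomes 16 and 3 stayed next highest, at 37.7% and 35.9%. At the low end the order changed. Chromosomes 11 and 5 stood at 21.7% and 21.4%, above chromosome 14 at 18.2% and chromosome 7 at 19.1%. The gap between the highest and the lowest chromosome was 37.5 percentage points, and 23.5 without chromosomes 13 and 18. More than 100 kb from H3K9me3, 41.2% of peaks were lost on chromosome 13 and 47.3% on chromosome 16, against 11.6% on chromosome 18 and 13.2% on chromosome 11. The WT and KO lists come from separate cultures, and culture and genotype cannot be told apart.

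**Figure D5:**
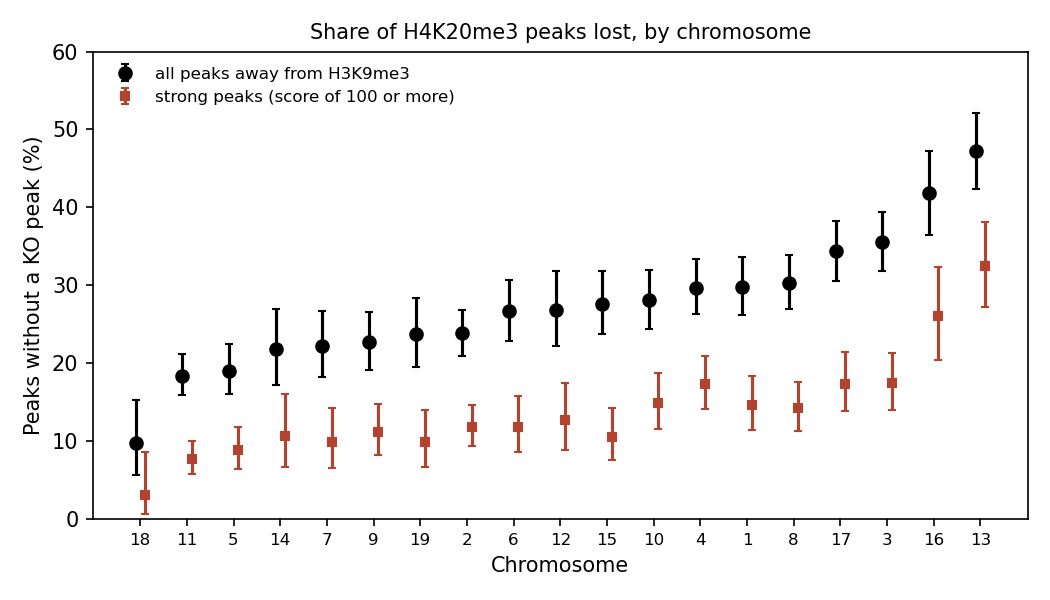
Percentage of WT H4K20me3 peaks away from H3K9me3 without a KO peak (y axis) on each of chromosomes 1 to 19 (x axis, ordered by share), for all peaks and for strong peaks, with exact 95% intervals over peaks. Chromosomes 13 and 16 are highest in both series, at 47.2% and 41.8% for all peaks, and chromosome 18 is lowest.

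Members were spread over 1198 windows of 1 Mb, 555 of which held only 1. Windows with 5 or more members numbered 118 and held 29.1% of them. The fullest, at 27 to 28 Mb of chromosome 13, held 20 members among 21 WT H4K20me3 peaks, 10 of them strong, and 1 KO H4K20me3 peak. It had 9 WT H3K9me3 peaks, but none of its members lay within 10 kb of one. On chromosome 17 the windows at 59 to 60 Mb and 75 to 76 Mb held 15 members each, beside 2 and 30 WT H3K9me3 peaks. Windows at 67 to 68 Mb of chromosome 13 and 62 to 63 Mb of chromosome 15 held 13 members each, beside 17 and 8 H3K9me3 peaks. None of these 5 windows held a KO H3K9me3 peak. That list had only 2862 peaks on chromosomes 1 to 19, against 14185 for H3K9me3 in WT. The share of all windows without a KO H3K9me3 peak was not computed.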

How the data were processed

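Peak lists of the 5 ChIP libraries were used, and the 3 input libraries were not analysed here. Per the submitters' processing notes, the authors used CASAVA 1.82, Bowtie2 2.2.1 and MACS 1.4 with build mm9; for call parameters and histone controls, the sources used here give nothing. The deposited score of each peak is the authors' own value, read as a MACS score from its values and the peak names, which grows with depth and peak width. The files give no read counts, so depth is unknown, and a shallower library gives fewer peaks.

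Positions are printed counting from 1. Overlaps and distances (bases between peaks) were computed in Python 3.11.15 (pandas 2.3.3, numpy 2.4.6). All 44416 distances compared with bedtools 2.31.1 were the same, and a simulated list of 11104 peaks with known classes was recovered without error. Intervals came from scipy 1.17.1, figures from matplotlib 3.10.9. The members, lists and tests were chosen with earlier results of these data known. Named regions are the 10 highest-scoring members, the 5 highest without H3K9me3 within 100 kb, the 5 highest within 1 kb of it, the 5 longest, up to 5 strong ones on KAP1 peaks, the 5 fullest windows of 1 Mb, the 3 chromosomes at each extreme and 2 stable peaks. Gene annotation and sequence of build mm9 were not used here. Alternatives are given in the closing section.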

Additional observations from a re-analysis of the deposited data

How the results depend on the processing

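Of 138 recomputed values, 61 stayed within a set range of the value first given and 77 did not. This range was the exact 95% interval for shares and a 95% interval from the ordered values for medians. For numbers of peaks it was within 1.5 times. For the span between chromosomes it was a margin taken from the interval of a single chromosome, which is not a 95% interval of the span. Under all alternatives, lost peaks lay near H3K9me3 and near other lost peaks more often than stable ones. Lost peaks lay within 10 kb of H3K9me3 1.98 to 3.32 times as often as stable ones under the alternatives that kept that distance, and 1.86 to 3.61 times among strong peaks. The 3.61 comes from requiring 50% overlap, where peaks partly on H3K9me3 also count as near it. Depth is unknown, so how many weak peaks fell under the threshold of the KO list alone was not measured. Except where an alternative itself changes the distance, the score limit or the number of peaks, the cause of a shift was not tested. The alternatives for KAP1 and KO H3K9me3 peaks, the weighting of stable peaks and the recomputing of named peaks were chosen after seeing the data. No paired analysis was possible because each group has 1 library.

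With all 5 lists limited to scores of at least 100 there were 1629 lost peaks, all of them strong, more than the 975 strong ones first found because fewer H3K9me3 and KO peaks were left to overlap. They were 22.4% of peaks away from H3K9me3, with a median score of 148 and length of 778 bp. Of them 14.3% (stable 4.31%) lay near H3K9me3, 18.5% (stable 3.43%) near another lost peak, 13.4% near a KO H4K20me3 peak and 0.614% near KO H3K9me3, and chromosomes spanned 44.2 percentage points. With equal numbers of highest-scoring H4K20me3 peaks, 1380 were lost (17.4%), with medians of 120 and 711 bp, 23.8% (stable 2.73%) near another lost peak, 16.6% near a KO H4K20me3 peak and a span of 31.4 points.

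With peaks within 5 kb merged, 1814 regions were lost (21.7%; strong 10.8%), with medians of 83.3 and 590 bp. Near H3K9me3 lay 18.1% (stable 9.14%; strong 17.5 and 9.37%), near another lost region 3.69% (stable 1.59%), near a KO H4K20me3 peak 8.10% and near KAP1 0.662%, and the span was 30.8 points. It was 23.5 points without chromosomes 13 and 18, where nothing else moved. Requiring 50% of the peak to be covered gave 31.2% lost (strong 17.8%), medians of 86.4 and 590 bp, 32.3% near H3K9me3 (strong 37.0%), 31.9% (stable 7.50%) near a lost peak and 24.5% near a KO peak. Under this rule, peaks with less than 50% of their length in H3K9me3 or in a KO peak could be members. They were counted as near it, so these shares mix partly overlapping peaks with nearby ones. Counting peaks within 1 kb as shared gave 23.4% lost (strong 11.9%), 20.4% near H3K9me3 (strong 22.4%), 3.20% of stable peaks near a lost one and 11.5% of lost peaks near a KO peak. That alternative and the merging each put 7 of the 23 named peaks into another class, and the others put none there, though leaving out chromosomes 13 and 18 removes 1 of them.

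Near as 5 kb gave 20.3% for H3K9me3 (stable 4.12%; strong 21.2 and 4.21%), 25.7% (stable 4.30%) for other lost peaks, 14.3% for KO H4K20me3, 0.698% for KAP1 and 1.14% for KO H3K9me3. At 50 kb these were 56.5% (stable 40.5%; strong 57.0 and 40.9%), 42.6% (stable 19.3%), 45.6%, 3.56% and 4.59%. Setting strong peaks at a score of at least 200 left 217 lost (5.07%), 34.6% of them near H3K9me3, and the upper 25% of scores left 66 (2.66%), 33.3% near H3K9me3. Adding chromosome X gave 2773 lost peaks and moved no value out of its range.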
